A study of Trichoderma reesei with 12 samples.

Results

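The gene models described here are those of the filamentous fungus Trichoderma reesei from which almost no RNA was counted in mycelium grown on cellulose. They were chosen by their summed count: an identifier was taken as silent if it held at most 12 counts over all 12 libraries together. Of 10879 identifiers in the table, 1037 met this rule, or 9.53%. Of these, 1034 are numbered within one of 7 lettered series and end in W or C, and the other 3 are entries named for mating-type genes. The count therefore chose the members, and their low level is a description and not a finding. What the rule did not use, and what is reported below, is their place in the numbering, the letters W and C, the libraries in which the few remaining counts lay, and the behaviour of the identifiers next to them.

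Both strains derive from QM6a, and all 4 groups lack ku80, whose product acts in non-homologous end joining and which is deleted to make gene targeting more efficient. The groups, with 3 libraries each, were the tmk3 deletion in constant light, its parent in constant light, the tmk3 deletion in constant darkness and the parent in constant darkness, all sampled after 96 h on cellulose. The parent, whose genotype field reads WT, thus carries the ku80 deletion too, and tmk3 encodes a mitogen-activated protein kinase. The table names neither gene, so the deletions were not checked here. The labels name no complemented strain and do not state that the 3 libraries of a group are separate cultures. The p-values therefore measure the spread between these libraries, which may be technical. All libraries are from cellulose, so whether these gene models are silent on other carbon sources was not measured.

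Filamentous fungi keep many genes off during vegetative growth on any 1 substrate, among them gene clusters for secondary metabolites and genes of sexual development. Gene models near chromosome ends and in repeat-rich DNA are known for low transcription in such fungi. Repeated DNA is also mutated by a process named repeat-induced point mutation, known best from Neurospora crassa.

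The libraries held between 11599300 and 17702344 counts, 170216086 in all. The limit set by a count of 0 was 0.169 CPM, counts per 1000000 of the library total, in the deepest library and 0.259 in the shallowest (3 counts, counting error only). The rule's limit of 12 counts was 0.0705 CPM over all libraries. Within the 4 groups no pair of libraries agreed within sampling noise, with a chi-square per degree of freedom of 12.4 at least. Replicate 2 of the parent in darkness stood apart, with 328.6 against replicate 1 and 461.5 against replicate 3 of its group. Those 2 gave 58.65 against each other, and no pair in the other groups exceeded 89.2.

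Of the 1037 silent identifiers, 402 (38.8%) held 0 counts in every library and 635 held between 1 and 12. Together they held 3271 counts, or 0.00192% of all counts. The number of identifiers per summed count ran on evenly across the limit: 33 identifiers had 12 counts, just inside, and 35 had 13, just outside. With a limit of 6 counts 825 identifiers would qualify, and with 24 counts 1327 would.

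The 3 mating-type entries were all silent. The mat1-1 genes belong to one form of the mating-type locus of ascomycete fungi, and mat1-1-1 encodes an alpha-box regulator of sexual development. QM6a is known as a strain of the opposite mating type. The entries mat1-1-2 and mat1-1-3 held 0 counts in all 12 libraries. For mat1-1-1 the libraries held 1, 1 and 1 counts in the tmk3 deletion in light and 1, 0 and 2 in the parent in light, then 0, 0 and 0 in the tmk3 deletion in darkness and 0, 0 and 1 in the parent in darkness. These 7 counts were thus spread over 6 libraries, with no more than 2 in any of them.

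Silent identifiers occurred in every letter series, and series F held the most. In F, 218 of 1211 identifiers were silent, or 18.0%. The shares were 10.8% in G (131 identifiers), 9.08% in D (131), 8.34% in E (109), 8.24% in B (163), 7.96% in A (171) and 7.03% in C (111). Over the 6 series other than F the share was 8.44%. Without a run of 37 silent identifiers described below, F still held 181 silent identifiers, or 15.4%. Counted in blocks of 100 numbers, F reached 26 and 27 between numbers 201 and 400, and 42 between 601 and 700. The highest number in such a block of the other series was 22, in the block of A that starts at 1901. Series F also held 127 of the 402 identifiers with 0 counts, while the other series held between 28 and 57 each.

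**Figure D1:**
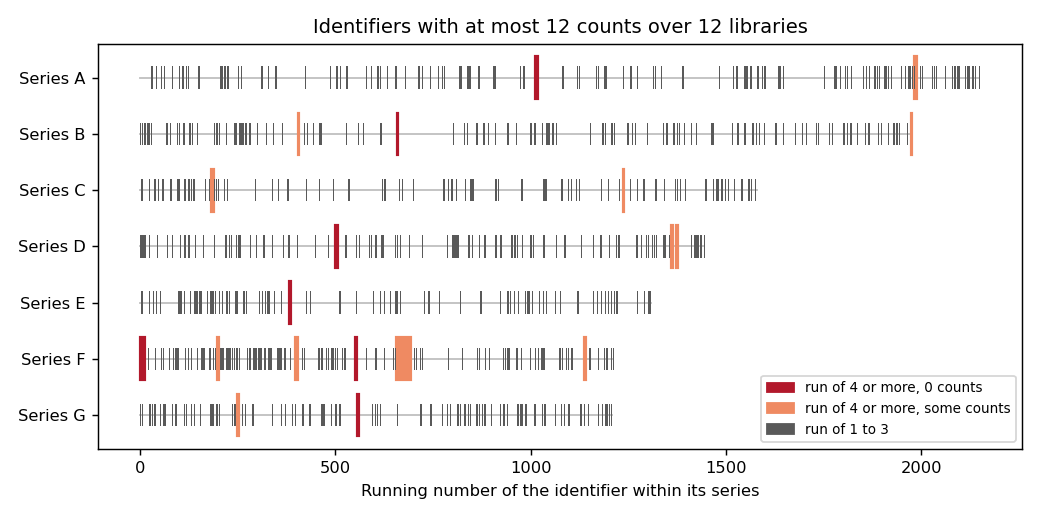
Silent identifiers along the 7 letter series, with the running number on the horizontal axis and 1 row per series. Short grey marks are runs of 1 to 3 silent identifiers; tall marks are runs of 4 or more, dark red where all held 0 counts and orange where some held counts. Marks are widened for visibility. The run of 37 in series F and the runs of 0 counts inside series A, B, D, E, F and G stand out.

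Taken in order of their numbers, the 1034 silent identifiers formed 746 runs of consecutive numbers. Consecutive numbers are read here as neighbouring gene models, which the form of the identifiers implies and the table, having no coordinates, does not show. Most runs were of 1 identifier: 592 silent identifiers (57.3%) stood alone between others. The remaining 442 lay in 154 runs, of which 135 had 2 or 3 members and 19 had 4 or more. Those 19 runs held 143 identifiers. Pooled into 4 classes of length, the share with 0 counts in all libraries was 29.1% of identifiers standing alone, 40.5% in runs of 2 or 3, 68.9% in runs of 4 to 11 and 91.9% in the run of 37. By single lengths it did not increase steadily: it was 56.3% in runs of 4, 52% in runs of 5, 75% in runs of 6, 64.3% in runs of 7, 81.3% in runs of 8 and 100% in the run of 11.

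The longest run, TrF0656W to TrF0692W, held 37 consecutive silent identifiers with 11 counts in all. Its final letters repeated with a period of 4, a W followed by 3 C, for 9 full repeats and a closing W, so that it consisted of 10 W and 27 C. No other stretch of the table repeated its letters with a period of 4 over more than 21 identifiers, against 38 here, where the next identifier, TrF0693C, still fits the pattern. All 11 counts fell on W identifiers. TrF0684W held 8, with 1, 1 and 1 in the tmk3 deletion in light, 0, 0 and 0 in the parent in light, 0, 1 and 2 in the tmk3 deletion in darkness and 0, 1 and 1 in the parent in darkness. TrF0680W held 2 and TrF0692W held 1. The 27 C identifiers held 0 counts in every library. How reads that fit several near-identical copies were counted is not given in the sources used here, so for a repeated block a count of 0 cannot be told apart from reads left out for that reason.

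The run had counted identifiers directly on both sides. TrF0655W, before it, held 1178, 1169 and 1229 counts in the tmk3 deletion in light, 1005, 836 and 896 in the parent in light, 1332, 1802 and 1462 in the tmk3 deletion in darkness and 2713, 1361 and 2804 in the parent in darkness. TrF0693C, after it, held 96, 98 and 111 counts in the tmk3 deletion in light, 258, 212 and 213 in the parent in light, 100, 140 and 219 in the tmk3 deletion in darkness and 175, 92 and 189 in the parent in darkness. Both were counted in all 12 libraries, so the change from counted to silent fell between consecutive numbers at either edge. TrF0655W fell in light in the parent, with a log2 fold change of -1.44 (edgeR adjusted p = 0.000243). In the tmk3 deletion its change with light was not called (-0.07, edgeR adjusted p = 0.836). It was also lower in the tmk3 deletion in darkness (-0.79, edgeR adjusted p = 0.0114). Its strain difference changed with light (interaction 1.38, edgeR adjusted p = 0.0104). TrF0693C was lower in the tmk3 deletion in light, with a log2 fold change of -0.96 (edgeR adjusted p = 0.0193).

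**Figure D2:**
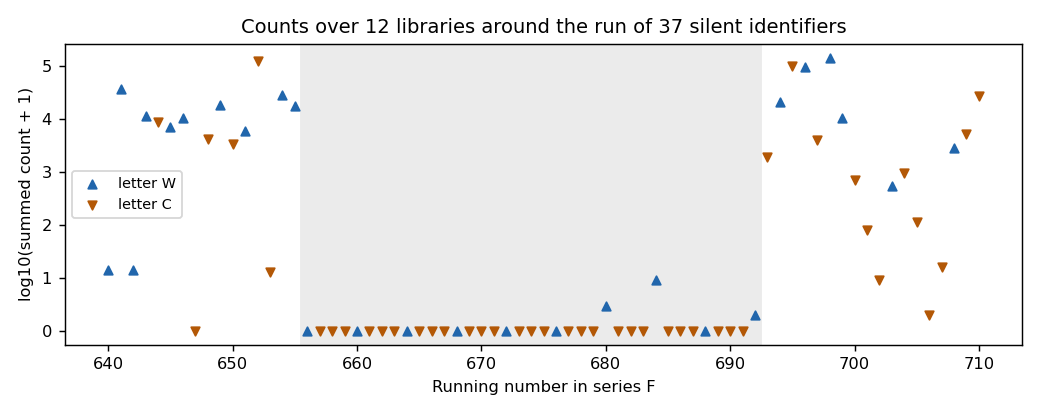
Summed counts over 12 libraries, as log10 of the count plus 1, for identifiers 640 to 710 of series F. Upward triangles end in W and downward triangles in C, and the shaded span is the run of 37. Within it only 3 of the W identifiers leave the zero line, and the identifiers at both edges reach 1903 counts or more.

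A further 7 whole runs of 4 or more silent identifiers held 0 counts throughout, and 6 of them lay inside a series. They were TrD0499C to TrD0506W with 8 identifiers, TrA1012C to TrA1018W with 7, TrE0382W to TrE0387C and TrG0556W to TrG0561W with 6 each, TrF0552W to TrF0556C with 5 and TrB0658C to TrB0661C with 4. Counted as whole runs of silent identifiers, each of the 6 series A, B, D, E, F and G had exactly 1 such inner run. The next longest inner stretch of 0 counts, whole run or part of one, had 3 identifiers in D, 2 in A, E and G, and 1 in B. Series F had more than 1 stretch of 4 or more. Parts of its run of 37 were longer, and TrF0397W to TrF0400C, part of a run that held counts, had 4. The midpoints of the 6 runs lay at 34.8% of the numbers in D, 47.2% in A, 29.4% in E, 46.2% in G, 45.7% in F and 33.4% in B. Series C had none: its longest inner run of 0 counts was TrC0006W to TrC0008C, close to its start. This pattern was seen while describing the runs and was not tested.

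The identifiers directly next to these 6 runs were all well counted. All 12 passed the filter on low counts and held counts in every library, between 1363 and 79862 in sum. TrF0557C, for example, held 6937, 7681 and 7165 counts in the tmk3 deletion in light, 7843, 7616 and 6088 in the parent in light, 5818, 6420 and 7348 in the tmk3 deletion in darkness and 6423, 4180 and 6343 in the parent in darkness, while its neighbour TrF0556C held 0 in all 12. Scaled for depth, it lay between 549 and 581 CPM (TMM-scaled library sizes) in the tmk3 deletion in light, above the other 3 groups, and the parent overlapped between light and darkness. TrF0557C rose in light in the tmk3 deletion with a log2 fold change of 0.45 (edgeR adjusted p = 0.0129). Around TrA1012C to TrA1018W, TrA1011W held 208, 178 and 187 counts in the tmk3 deletion in light and 133, 131 and 86 in the parent in light. In darkness it held 328, 448 and 462 in the tmk3 deletion and 234, 316 and 301 in the parent. TrA1011W fell in light in the parent with a log2 fold change of -1.45 (edgeR adjusted p = 0.000142) and was the only one of the 12 called at 2-fold or more in that comparison, beside 26.5% of all tested. In light between the strains 1 of the 12, TrG0555C, passed that size, beside 13.5% of all tested. It was higher in the tmk3 deletion with a log2 fold change of 1.08 (edgeR adjusted p = 0.000623).

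Of the other 11 runs of 4 or more, which held a few counts, the longest were TrF0397W to TrF0404W, with 8 identifiers and 5 counts, and TrC0182C to TrC0188W, with 7 identifiers and 29 counts. The identifiers on either side of TrF0397W to TrF0404W held only 14 and 18 counts, just above the limit. Of the 21 identifiers directly next to the 11 runs, 13 passed the filter on low counts, and sums went down to 13 counts. Of these 13, 10 were called at 2-fold or more between the strains in darkness, beside 22.7% of all tested identifiers. Next to the inner runs of 0 counts it was 0 of the 12. In the other comparisons, the interaction included, 5 to 8 of the 13 and at most 1 of the 12 passed that size. The level differed too, with a median sum of 343 counts over the 21 and 8823 over the 12. The sets are small, were formed after the values were seen, and their difference was not tested. TrF0202W, after the run TrF0198W to TrF0201C, held 25, 32 and 17 counts in the tmk3 deletion in light and 313, 273 and 226 in the parent in light. In darkness it held 18, 59 and 169 counts in the tmk3 deletion and 2, 3 and 8 in the parent. The strains did not overlap in light or in darkness, and their order was opposite in light and darkness. TrD1378W, after the run TrD1372C to TrD1377W, held 0, 0 and 1 counts in the tmk3 deletion in darkness and 19, 11 and 27 in the parent in darkness. At the other edge of that run TrD1371C held 41, 20 and 38 counts in the tmk3 deletion in darkness and 1, 0 and 1 in the parent in darkness. The 2 edges of the run thus differed between the strains in opposite directions, while the 6 identifiers between them held 17 counts in all.

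Silent identifiers were more frequent at the very ends of the series. Among the outermost 50 numbers at either end of the 7 series, 113 of 700 identifiers were silent (16.1%), against 921 of 10176 elsewhere (9.05%). These 113 were 10.9% of all silent identifiers with a series letter. The outermost 10 numbers carried most of this: 52 of 140 identifiers were silent there (37.1%), and 33 held 0 counts (23.6%). From number 11 to 20 the share was 12.1%, from 41 to 50 it was 4.29%, and from 101 to 200 it was 13.3%, so beyond the outermost 10 the share did not decline steadily. Without the run at the start of series F, 42 of 130 identifiers in the outermost 10 were silent (32.3%). Neighbouring identifiers are not independent, and no test was made.

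**Figure D3:**
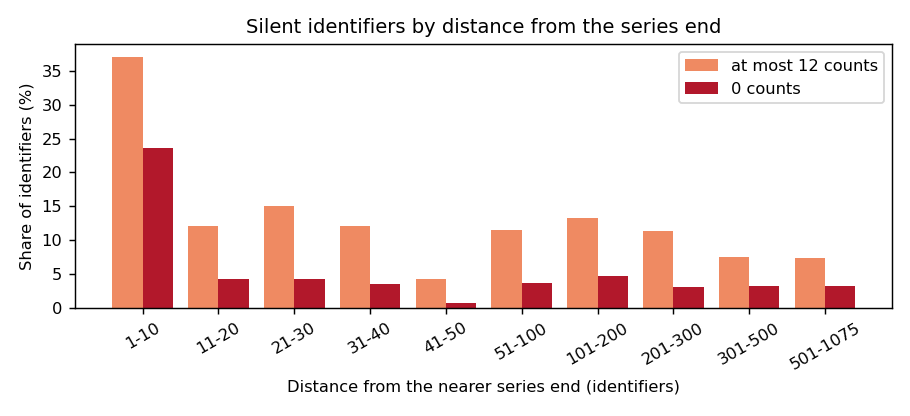
Share of identifiers with at most 12 counts (orange) and with 0 counts (dark red), in percent, by distance from the nearer end of the series in numbers. The outermost 10 numbers, at 37.1% and 23.6%, stand above all other distances.

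Of the 14 first or last identifiers of the series, 9 were silent. Series F opened with 11 identifiers at 0 counts, TrF0001C to TrF0011W, and TrF0012W after them held 109 counts over all libraries. Series B closed with 5 silent identifiers, TrB1973C to TrB1977C, with 15 counts, and opened with 3. Series G opened with 3 and E closed with 3. In contrast, A opened with TrA0001W at 2690 counts, with 0 silent among its first 10, and C closed with TrC1580C at 546 counts.

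The letters W and C, which by common usage name the strands, were about equally frequent, with W in 48.6% of silent identifiers and 49.4% of the others. Neighbours within the silent set were on the same letter more often than neighbours outside it: 144 of 288 consecutive pairs of silent identifiers shared the letter (50%), against 3736 of 9098 pairs with no silent member (41.1%). Pairs of 1 silent and 1 other identifier lay between, with 45.0%. Without the run of 37 the share among silent pairs was again 50%, over 252 pairs.

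The few counts that silent identifiers did hold were spread unevenly over the libraries. Summed over all 1037, the tmk3 deletion in light held 228, 235 and 177 counts and the parent in light 165, 200 and 155, while the tmk3 deletion in darkness held 288, 324 and 427 and the parent in darkness 329, 379 and 364. As CPM this was 17.8 ± 2.46 in the tmk3 deletion in light and 11.7 ± 2.38 in the parent in light (SD, n = 3 each). In darkness it was 23.6 ± 1.99 in the tmk3 deletion and 23.7 ± 2.55 in the parent (SD, n = 3 each). Relative to the library totals, the light libraries of each strain lay below all its dark libraries, the tmk3 deletion in light lay above the parent in light, and the strains overlapped in darkness. Scaled by TMM as well, the tmk3 deletion held 16.7 ± 2.02 and the parent 11.9 ± 2.22 CPM in light, and the tmk3 deletion held 21.8 ± 2.15 and the parent 27.0 ± 4.21 CPM in darkness (SD, n = 3 each). The sum over chosen members carries no test. Among members with 1 to 7 counts alone, light and darkness overlapped in the tmk3 deletion, with 10.4, 8.88 and 7.62 CPM in light and 9.07, 8.96 and 10.01 in darkness. The same members held 4.46, 7.61 and 5.92 CPM in the parent in light and 11.9, 10.5 and 10.5 in the parent in darkness, without overlap. The gap between light and darkness in the tmk3 deletion was thus seen over all members but not among those with the fewest counts. The 290 identifiers just outside the rule, with 13 to 24 counts, held 29.5 ± 3.54 CPM in the tmk3 deletion in light and 20.1 ± 2.96 in the parent in light (SD, n = 3 each). In darkness they held 40.8 ± 7.09 CPM in the tmk3 deletion and 32.1 ± 4.11 in the parent (SD, n = 3 each).

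**Figure D4:**
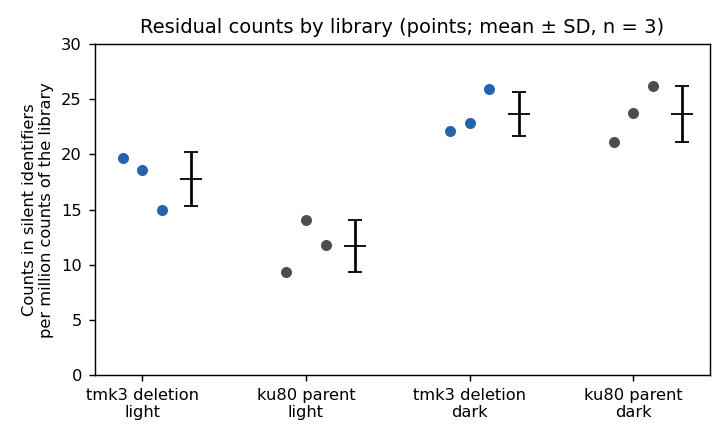
CPM held by the 1037 silent identifiers together in each library. Points are libraries and the bars give mean ± SD of 3 libraries per group. The 6 dark libraries lie between 21.1 and 26.2, and the parent in light is lowest, between 9.32 and 14.1.

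Of the 635 silent identifiers with counts, 226 held them in dark libraries alone and 105 in light libraries alone, and 37 held a count in all 4 groups. Among the 180 with 8 to 12 counts, 50 held none in light and 3 held none in darkness. Of those 50, 28 held counts in both strains, 8 in the tmk3 deletion alone and 14 in the parent alone. These numbers are not scaled for depth, and the tmk3 deletion in light had the shallowest libraries. No such split was counted for identifiers outside the rule. Of all 8998 tested identifiers, 26.7% fell and 20.8% rose with light in the parent (edgeR adjusted p below 0.05). In the tmk3 deletion 21.1% fell and 17.7% rose. A lean to darkness is therefore not shown to be particular to silent identifiers.

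Some of these identifiers were counted in all 3 libraries of 1 group and in no library of another. TrB0940C held 3, 3 and 6 counts in the tmk3 deletion in darkness and 0 in the other 9 libraries. TrA0841W held 3, 5 and 3 counts in the tmk3 deletion in darkness and 0 elsewhere. Both are therefore silent by the rule but were counted in each library of that group. TrE1291C held 2, 2 and 4 counts in the parent in darkness and 0 elsewhere. TrB0022C held 0 counts in the tmk3 deletion in darkness and 4, 2 and 4 in the parent in darkness, with 2 further counts in light.

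No silent identifier passed the filter on low counts, so none was tested in the main fit. With no filter, 635 could be tested beside all others. The rule had capped the sum of these same counts at 12, which limits what can be called among them. Their calls and p-values are therefore given as description and not as support for an effect. In darkness 6 were called between the strains (edgeR adjusted p below 0.05), of 36.0% called among all 10477 identifiers in that fit. TrB0940C and TrA0841W were higher in the tmk3 deletion (edgeR adjusted p = 0.0431 and 0.0474), and TrB0022C, TrB1803C, TrA1987C and TrA0218C were lower, with adjusted p between 0.0204 and 0.0475. In light 0 were called between the strains, where 17.6% of all were, and 16 had an unadjusted p below 0.05. For light against darkness 4 were called in the parent, of 41.5% among all, and 1, TrB0940C, in the tmk3 deletion, of 32.7%. In the parent TrE1220C, TrD0868C and TrE1291C fell in light and TrA0592W rose, with 3, 2 and 1 counts in light and 0, 0 and 0 in darkness. The interaction called 0, of 11.8% among all, and 12 had an unadjusted edgeR p below 0.05 (1.89%), beside 25.9% of all. Fold changes against a group with 0 counts depend on the prior count and are not given.

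In 10 of the 180 identifiers with 8 to 12 counts, more than 80% of the counts came from 1 library. These were 4 with replicate 3 of the tmk3 deletion in darkness, 2 with its replicate 1, 3 with replicate 2 of the parent in darkness and 1 with its replicate 3. TrA1525C held 10 counts in replicate 3 of the tmk3 deletion in darkness and 0 in the other 11 libraries, and TrA2085W held 12 counts in replicate 2 of the parent in darkness and 0 elsewhere.

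TrA1527C, close to TrA1525C, had silent identifiers on both sides, TrA1526W and TrA1528C, each with 0 counts in all 12 libraries. It was the most abundant identifier with silent neighbours on both sides. It held 283, 148 and 1943 counts in the tmk3 deletion in light, 641, 4239 and 611 in the parent in light, 15060, 128 and 48040 in the tmk3 deletion in darkness and 2073, 10385 and 98 in the parent in darkness. The spread within each dark group exceeded 100-fold, and the same replicate of the tmk3 deletion held most counts of TrA1527C and all of TrA1525C. TrA1169W, the most abundant identifier next to a silent one, was steady, with 2489 ± 95.7 CPM in the tmk3 deletion in light, 2565 ± 55.0 in the parent in light, 2375 ± 116 in the tmk3 deletion in darkness and 2219 ± 499 in the parent in darkness (SD, n = 3 each). Here and below, CPM of single identifiers use TMM-scaled library sizes. Its silent neighbour TrA1168C held 9 counts over all libraries.

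In all, 1395 identifiers that were not silent had a number directly next to a silent one, and 88 of them had silent identifiers on both sides. Of the 1395, 1201 (86.1%) passed the filter on low counts, against 7797 of 8447 (92.3%) of those farther away. That share increased with distance, to 89.3% at 2 numbers, 91.0% at 3 and 93.7% beyond 10. Their summed counts ranged from 13 to 411130 with a median of 2442. Of the 592 silent identifiers standing alone, 435 (73.5%) had tested identifiers on both sides, 148 on 1 side and 9 on neither.

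Neighbours of silent identifiers fell more often than the tested identifiers at large in all 4 pairwise comparisons, and did not rise more often. In light against darkness in the parent, 444 of the 1201 fell (36.97%), beside 26.7% of all 8998 tested, and 232 rose (19.3%), beside 20.8%. In light against darkness in the tmk3 deletion, 346 fell (28.8%), beside 21.1%, and 160 rose (13.3%), beside 17.7%. In the tmk3 deletion against the parent in darkness, 330 fell (27.5%), beside 21.6%, and 223 rose (18.6%), beside 19.1%. In the tmk3 deletion against the parent in light, 185 fell (15.4%), beside 9.78%, and 120 rose (9.99%), beside 10.8%. Calls are at an edgeR adjusted p below 0.05. In both directions together 56.3% of neighbours changed with light in the parent, beside 47.5% of all tested, and 42.1% did in the tmk3 deletion, beside 38.7%. Between the strains 46.0% of neighbours changed in darkness, beside 40.7%, and 25.4% in light, beside 20.5%. The interaction, the difference in the strain effect between light and darkness, was higher for 105 neighbours (8.74%), beside 6.39%, and lower for 105 (8.74%), beside 7.71%. The comparisons share libraries, so they are not separate observations. With libraries scaled by total count alone, the neighbours in darkness between the strains split the other way, into 314 that rose (26.1%) and 216 that fell (18.0%), beside 27.6% and 11.5% of all tested. Under that scaling the median log2 fold change of all tested identifiers moved up by 0.28.

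The share that fell was highest directly next to a silent identifier in all 4 pairwise comparisons. It did not decrease at every step of distance in the parent or between the strains in darkness. In the parent in light it was 36.97% at 1 number, 30.7% at 2, 24.9% at 3, 27.1% at 4 or 5, 24.7% at 6 to 10 and 22.3% beyond 10. In the tmk3 deletion in light against darkness it was 28.8% at 1 number and 15.8% beyond 10. Between the strains it was 15.4% at 1 number and 7.31% beyond 10 in light. In darkness it was 27.5% at 1 number, 19.0% at 6 to 10 and 19.8% beyond 10. The shares that rose moved less. In light in the tmk3 deletion they were 13.3% at 1 number, 18.4% at 3, 17.8% at 4 or 5 and 19.7% beyond 10. In light in the parent they lay between 18.1% and 22.4%. Between the strains they were 9.99% at 1 number and 10.9% beyond 10 in light, and 18.6% and 19.2% in darkness. The level of tested identifiers moved with the distance too: the median log2 CPM, which is not per length, was 4.56 at 1 number and 5.39 beyond 10. The part of this level, and of the uneven spacing along the series, in the shares was not tested.

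**Figure D5:**
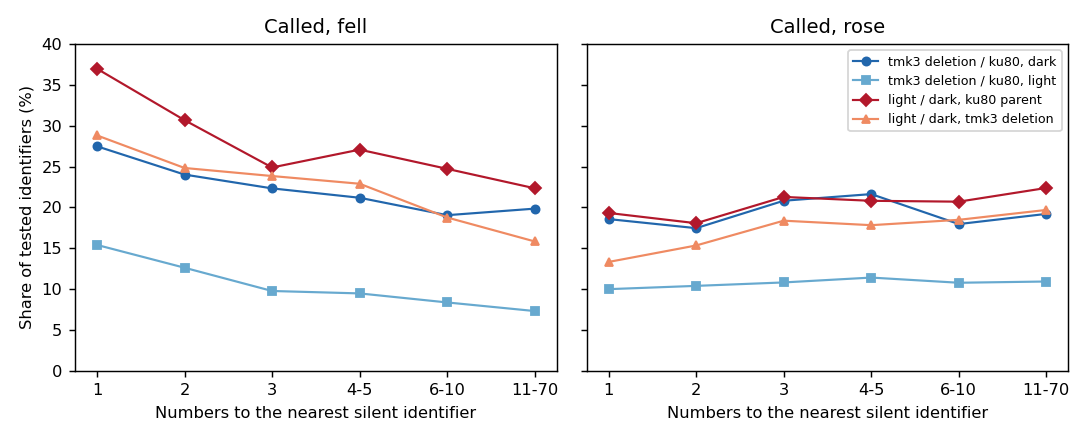
Share of tested identifiers that fell (left) or rose (right), in percent, by distance in numbers to the nearest silent identifier, for the 4 pairwise comparisons. The share that fell in light in the parent is 36.97% next to a silent identifier and 22.3% beyond 10 numbers, and the share that rose in light in the tmk3 deletion is 13.3% next to a silent identifier and 19.7% beyond 10.

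The excess of falls was also present away from the series ends. Outside the outermost 50 numbers at either end, 386 of 1092 neighbours fell in light in the parent (35.3%), against 1821 of the 7428 other tested identifiers (24.5%). In the tmk3 deletion in light against darkness 27.7% of neighbours and 18.8% of the others fell. Between the strains 14.3% of neighbours and 8.36% of the others were lower in the tmk3 deletion in light, and 26.01% and 20.2% in darkness. At the series ends themselves 53.2% of neighbours and 37.7% of the others fell in light in the parent, and 39.4% of neighbours and 40.4% of the others in the tmk3 deletion.

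Single neighbours changed strongly beside silent identifiers, whose low counts in every group were set by the rule. The files pair no gene names with the identifiers, so those below are given by identifier alone. In light against darkness TrB1183C had 2901, 4713 and 3564 counts in the tmk3 deletion in light, 8016, 6587 and 6018 in the parent in light, 11, 4 and 30 in the tmk3 deletion in darkness and 12, 11 and 10 in the parent in darkness. Its groups in light and darkness did not overlap in either strain. It rose in light by 9.13 in the parent (SE 0.48, edgeR adjusted p = 2.09e-07) and by 8.26 in the tmk3 deletion on the log2 scale, or 9.13 when replicate 3 of the dark tmk3 deletion was left out. The next identifier, TrB1184C, held 11 counts in all: 4, 1 and 2 in the tmk3 deletion in light, 1, 0 and 0 in the parent in light, 1, 1 and 1 in the tmk3 deletion in darkness and 0 in the parent in darkness. TrA1482C rose in light in the parent, with 269 ± 5.76 CPM in light and 3.01 ± 0.739 CPM in darkness (SD, n = 3 each), beside TrA1483C with 2 counts in 12 libraries. TrB1818C rose in light in the tmk3 deletion, with 1264 ± 110 CPM in light and 14.9 ± 2.04 CPM in darkness (SD, n = 3 each), beside TrB1819C with 4 counts.

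Among neighbours that fell in light in the parent, TrA1948C held 9, 16 and 11 counts in light and 2633, 16484 and 246 in darkness. The fall of -9.29 on the log2 scale (SE 1.54, edgeR adjusted p = 0.000591) was -6.92 without replicate 2 of the dark parent. Its silent neighbour TrA1949W held 6 counts, of which 5 were in that same replicate. TrE0665C held 2 counts in the parent in light and 1233 in the parent in darkness, a ratio of 681 for darkness over light (95% interval 188 to 5633), beside TrE0666W with 1 count. Both light counts lay in replicate 2, without which the light group held 0, and 791 of the dark counts lay in replicate 2 of the dark parent. Its log2 fold change was -9.21, against -8.17 without replicate 2 of the dark parent, -8.60 without replicate 1 of the light-grown parent and -11.83 without its replicate 2. In the tmk3 deletion TrA1878W held 2 counts in light and 925 in darkness, a ratio of 375 for darkness over light (95% interval 104 to 3103), beside TrA1879C with 0 counts. Both light counts lay in replicate 1, without which the light group held 0, and 620 of the dark counts lay in replicate 3. Its log2 fold change was -8.26, against -11.07 when replicate 1 in light and -7.40 when replicate 3 in darkness was left out. Values fitted against a group at 0 depend on the prior count. TrE0434C fell in light in the tmk3 deletion, with 1.04 ± 0.718 CPM in light and 175 ± 203 CPM in darkness (SD, n = 3 each), beside TrE0435W with 0 counts. Its log2 fold change of -7.38 (edgeR adjusted p = 0.000139) was -5.77 without replicate 1 of the dark tmk3 deletion and -8.03 without replicate 1 of the light-grown one. The intervals cover counting error only.

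Between the strains in darkness, TrF0416W held 529, 490 and 561 counts in the tmk3 deletion and 11, 15 and 9 in the parent. It was higher in the tmk3 deletion by 5.24 (SE 0.25, edgeR adjusted p = 5.48e-07), and TrF0415W beside it held 1 count in 12 libraries. TrG0050C held 1388, 1068 and 768 counts in the tmk3 deletion and 26, 13 and 6 in the parent, a log2 fold change of 5.97 that was 6.54 without replicate 1 of the dark parent. TrG0051C beside it held 4 counts. Lower in the tmk3 deletion were TrG0832W, with 213, 81 and 143 counts against 9720, 4159 and 8458 in the parent, and TrF1187C, with 110, 84 and 89 against 3457, 6720 and 2302. Their log2 fold changes were -5.85 and -5.72, the second -5.05 without replicate 2 of the dark parent. Their silent neighbours TrG0831C and TrF1188C held 2 and 6 counts.

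Between the strains in light, TrF0506C held 33, 20 and 37 counts in the tmk3 deletion and 1, 0 and 3 in the parent. Its log2 fold change was 4.57 (SE 0.70, edgeR adjusted p = 0.000999), and 5.85 when replicate 3 of the light-grown parent was left out. TrF0505C beside it held 0 counts. TrC0176C held 27.7 ± 3.96 CPM in the tmk3 deletion and 2.12 ± 1.68 CPM in the parent (SD, n = 3 each), a log2 fold change of 3.71, and 4.58 when replicate 2 of the light-grown parent was left out. TrC0177C beside it held 0 counts. TrD1424C held 3, 2 and 0 counts in the tmk3 deletion and 605, 772 and 575 in the parent, with a log2 fold change of -8.33 that was -9.02 without replicate 1 of the tmk3 deletion in light. TrD1423W beside it held 2 counts, both in replicate 3 of the dark parent. TrA1580C held 24, 16 and 8 counts in the tmk3 deletion and 1326, 1184 and 1130 in the parent, with -6.04 (SE 0.39, edgeR adjusted p = 4.41e-06). TrA1581W beside it held 12 counts over all libraries, just inside the rule, and 3 of them in the tmk3 deletion in light.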

How the data were processed

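The deposited table holds raw read counts per gene model, whole numbers that the authors did not normalize. Per the submitters' processing notes, reads were handled with HISAT2 2.2.1. Per the labels' protocols, a stranded kit was used after removal of ribosomal RNA. How strand and reads with several placements were treated in counting is not given in the sources used here, nor is the version of the counting tool, so counts of overlapping models, of models opposite each other and of near-identical copies are uncertain. Columns were matched to samples by the labels, and 0 were left unused. None of the identifiers (0 of 10879) matched the 9116 genes of the reference table, so no names, lengths, coordinates or sequences were available to this report.

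The rule, the members and the sets described here were chosen with earlier results of these data known. Runs and neighbours follow from the running numbers and were described without a test. Identifiers passing filterByExpr (8998) were fitted in R 4.3.3 with edgeR 4.0.16 (TMM, 4 group means, quasi-likelihood F test, Benjamini-Hochberg over all tested). The SE was taken as the size of the log2 fold change over the root of F. Neighbours named are, per comparison, at most 2 per direction with the largest change among called identifiers next to a silent one, at 3 or more in mean log2 CPM and without overlap of the groups (not required for the interaction). The 5 longest runs, the mating-type rows and the most abundant neighbours were also to be named; other identifiers were chosen after their values were seen. The procedure was also run on simulated data in which few identifiers changed, so this does not check it where as many change as here. Alternatives were other scalings, no filter, DESeq2 1.42.0, other limits and distances, a replicate block and each library left out.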

Additional observations from a re-analysis of the deposited data

Results flagged for a closer look

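The difference between the strains changed with light, by the interaction test, for 210 of the 1201 tested neighbours of silent identifiers (17.5%), 105 higher and 105 lower, beside 14.1% of all tested (edgeR adjusted p below 0.05). Without replicate 2 of the tmk3 deletion in light the count was 138, beside 9.19% of all. TrG1195C, with silent identifiers on both sides, had an interaction of 6.01 on the log2 scale (SE 1.70, edgeR adjusted p = 0.0391). It held 213, 49 and 1 counts in the tmk3 deletion in light, 3, 92 and 9 in the parent in light, 769, 205 and 585 in the tmk3 deletion in darkness and 15278, 5713 and 10334 in the parent in darkness. The light groups overlapped and the dark groups did not. Its call was lost when any of 8 libraries was left out, with values down to 4.16 (edgeR adjusted p = 0.152) without replicate 1 of the tmk3 deletion in light, and 8.54, with the call kept, when replicate 2 of the light-grown parent was left out.

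TrA0865C had 6.0 (SE 1.33, edgeR adjusted p = 0.0129), with 14, 6 and 7 counts in the tmk3 deletion in light, 0, 20 and 0 in the parent in light, 58, 19 and 62 in the tmk3 deletion in darkness and 2142, 935 and 1952 in the parent in darkness. Its light groups overlapped, with means of 0.708 CPM in the tmk3 deletion and 0.466 CPM in the parent, and its dark groups did not. Without replicate 2 of the parent in light that group held 0 counts. Leaving out replicate 1 of the parent in light gave 5.34. Leaving out replicate 1 of the tmk3 deletion in light gave 5.52 (edgeR adjusted p = 0.0712). TrF0416W had -4.06 (SE 0.39, edgeR adjusted p = 0.000145) and was higher in the tmk3 deletion in darkness, with 14, 17 and 11 counts in the tmk3 deletion in light and 8, 6 and 7 in the parent in light. TrB0862W had -3.59 (SE 0.79, edgeR adjusted p = 0.0128), with 98, 82 and 60 counts in the tmk3 deletion in light, 26, 79 and 18 in the parent in light, 863, 768 and 581 in the tmk3 deletion in darkness and 43, 8 and 22 in the parent in darkness. The light groups of TrB0862W overlapped and its dark groups did not. Leaving out replicate 2 of the light-grown parent gave -2.65, and leaving out replicate 1 of the dark parent gave -4.21.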

How the results depend on the processing

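With a limit of 0 counts in place of 12, 402 identifiers were silent, 7.29% of those at series ends were, and the longest run was 24. From 51 numbers inward, the share with 0 counts lay between 3.07% and 4.71%, depending on the distance. Leaving out each library in turn, with at most 11 counts, gave between 1016 and 1078 silent identifiers, 15.7% to 17.1% at series ends and a longest run of 37 each time. Called neighbours numbered 553 (strains, dark), 305 (strains, light), 676 (light, parent), 506 (light, tmk3 deletion) and 210 (interaction). Leaving out each library gave 421 to 601, 225 to 438, 572 to 728, 386 to 640 and 138 to 303. The shares of all tested that were called moved too, over 30.04% to 43.7%, 14.04% to 30.9%, 37.9% to 50.4%, 27.8% to 48.9% and 9.19% to 21.5%. Except between the strains in darkness, the upper ends came from leaving out replicate 2 of the dark parent. At an adjusted p below 0.01 the counts were 336 and 190 between the strains and 98 for the interaction, beside 23.7%, 12.3% and 6.16% of all tested. Within 3 numbers of a silent identifier, which takes in more identifiers, they were 1335, 710, 1556, 1267 and 486. Next to identifiers with 0 counts, which are fewer, they were 176, 99, 211, 159 and 68. Of these last, 38.6%, 47.5%, 31.8%, 30.2% and 54.4% were higher. Next to all silent identifiers 40.3%, 39.3%, 34.3%, 31.6% and 50% of the calls were higher. The numbers tested in the wider and narrower sets are not given, so their counts cannot be set beside the shares of all tested. In the 17 other fits to each comparison between 2 groups, the share of neighbours that fell was above that of all tested by 4.01 to 10.97 percentage points, and the share that rose was below it. Scaled by total count alone, 38.3% of interaction calls next to silent identifiers were higher, in place of 50%.

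Deviations of same-numbered libraries from their group means correlated between -0.37 and 0.12. With 3 libraries per group this cannot decide whether the numbers pair them. With a replicate block 482, 266, 625, 469 and 154 neighbours were called, beside 35.1%, 17.6%, 42.9%, 35.1% and 10.6% of all tested, and TrG1195C was not (5.54, edgeR adjusted p = 0.0894). Of the 6 libraries in each pair of groups, 0 and 1 correlated best with their own number between the strains in darkness and in light, and 4 and 4 between light and darkness. Depth limits what a count of 0 can show, and the table has no lengths to set counts against.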
